A study of Mus musculus with 8 samples.

Results

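The genes described here encode 10 enzymes of purine synthesis, from the activation of ribose phosphate through IMP to GMP: Prps1, Ppat, Gart, Pfas, Paics, Adsl, Atic, Impdh1, Impdh2 and Gmps. They were taken by symbol from a table of 52778 features, and all 10 were found in it. The samples are ventricles of C57BL/6 mouse embryos at day 11.5 (E11.5), with 4 RNA-seq libraries per genotype. The mutants are Atf4 del7/del7 embryos, in which CRISPR/Cas9 removed 7 bases from exon 3; the resulting frameshift ends translation early, and the polyadenylation signal was kept. The loss is global rather than limited to the heart, no drug was given, and all 8 samples carry batch label 1. The genotype field reads WT for all 8, mutants included, so groups were taken from the sample titles. The comparison asks whether transcripts of these enzymes differ when ATF4, a stress-induced transcription factor, is lost.

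Purine synthesis builds the adenine and guanine ring on a phosphoribosyl unit. The pathway takes amino groups from glutamine and aspartate, a whole glycine, carbon dioxide, and formyl groups carried by tetrahydrofolate, which serine supplies. Dividing embryonic cells depend on it because they copy DNA and make ribosomal RNA faster than salvage of old bases allows. ATF4 is known for driving enzymes of serine synthesis and of mitochondrial folate metabolism, which feed those formyl groups.

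The purine enzymes were expressed at moderate to high levels in both genotypes, and none of the 10 passed the test for a difference, a count of 0 (limma, Benjamini-Hochberg adjusted p below 0.05). Levels are TPM, which are scaled by transcript length and can therefore be set against each other between genes. Over all 15545 genes tested the same test called 6, or 0.0386%. At an unadjusted p below 0.05, 1 of the 10 was called, Prps1, against 6.10% of all genes. It was higher in the mutants, as were 2.65% of all genes at that threshold, and 0 of the 10 were lower, against 3.45% of all genes. In 0 of the 10 did the control and mutant values lie fully apart, against 3.68% of all genes. The summed level of the 10 was 697 ± 14.9 TPM in the control hearts and 718 ± 16.8 TPM in the mutant hearts (SD, n = 4 each). All 10 passed the filter on low values (1 TPM or more in 4 or more libraries), and the lowest single value was 18.8 TPM.

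The direction of the small differences was mostly upward. The log2 fold change of mutant over control was above 0 in 9 of the 10 genes and below 0 in Pfas, with a median of 0.051, whereas 48.2% of all tested genes lay above 0 and their median was -0.0033. The values ran from -0.055 for Pfas to 0.092 for Prps1. The 95% intervals of the 10 differences reached no lower than -0.19 and no higher than 0.25 on the log2 scale. A fall beyond 12.2% or a rise beyond 19.3% on the log2(TPM + 1) scale thus lay outside the interval of every enzyme.

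Levels differed widely along the pathway. Paics was highest with a mean of 229 TPM over the 8 libraries, and Pfas was lowest with 21.2 TPM, 10.8-fold lower. Between them came Impdh2 at 104 TPM, Atic at 76.1 TPM, Gart at 63.2 TPM, Gmps at 54.8 TPM, Prps1 at 53.1 TPM, Adsl at 43.5 TPM, Ppat at 32.7 TPM and Impdh1 at 29.7 TPM. The ranges of neighbours in this order did not overlap, with the exception of Gmps and Prps1 and of Ppat and Impdh1. Gmps exceeded Prps1 in 6 of the 8 libraries, so their order is not resolved, while Ppat exceeded Impdh1 in 8 of 8. The order therefore separates enzymes far more than it separates genotypes, as the plot of TPM by enzyme shows.

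**Figure D1:**
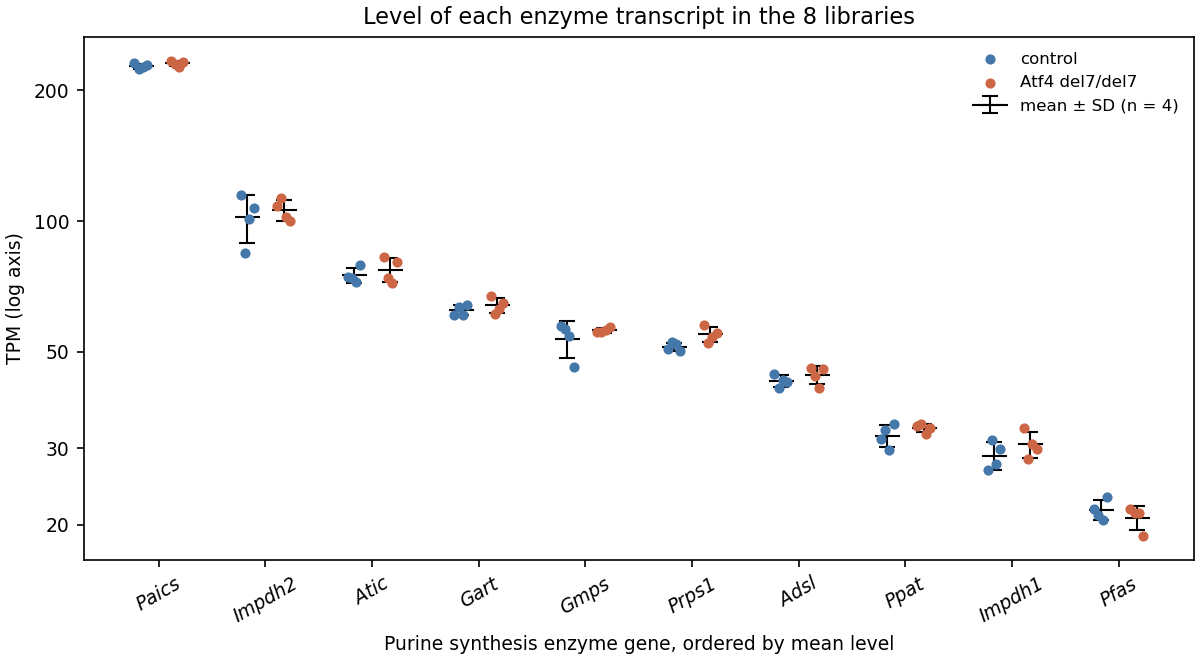
TPM on a log axis for each of the 10 enzyme genes, ordered by mean level, with 1 point per library (blue for the 4 control libraries, orange for the 4 Atf4 del7/del7 libraries) and black marks for the mean ± SD of each group. Control and mutant points overlap in all 10 genes, and levels run from 229 TPM for Paics to 21.2 TPM for Pfas.

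Prps1 encodes phosphoribosyl pyrophosphate synthetase, which makes the activated ribose that purine, pyrimidine and NAD synthesis share. It lies on chromosome X (GRCm38, bases 140456603 to 140476140, plus strand). Prps1 held 50.7, 52.6, 52.1 and 50.3 TPM in the control hearts and 57.7, 52.5, 54.1 and 55.2 TPM in the mutant hearts (replicates 1 to 4, here and below). Mutant replicates 1, 3 and 4 lay above every control, and mutant replicate 2 fell just below control replicate 2. The log2 fold change was 0.092 with an interval from 0.0055 to 0.18 (unadjusted p of 0.0394, limma adjusted p of 0.809 over all genes), the only interval of the 10 that excluded 0.

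Prps1 has a close relative, Prps1l3, on chromosome 12 (bases 57230412 to 57242168), whose coding sequence is 96.9% identical over 957 bases with 30 differences. Prps1l3 held 26.1 ± 1.44 TPM in the control hearts and 25.8 ± 0.883 TPM in the mutant hearts (SD, n = 4 each). How reads that fit both genes were divided is not given in the sources used here, so the split between them is uncertain. Summed with Prps1l3, an alternative chosen after the data were seen, Prps1 had a log2 fold change of 0.056 with an unadjusted p of 0.110 (limma adjusted p of 0.856). Prps2, the other ubiquitous synthetase, held 38.3 ± 1.29 and 38.6 ± 1.68 TPM (SD, n = 4 each).

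Ppat encodes the amidotransferase that commits phosphoribosyl pyrophosphate to purine synthesis, and Paics encodes a fused carboxylase and synthetase that acts later in the ring assembly. The genes lie head to head on chromosome 5. Ppat spans bases 76913249 to 76951578 on the minus strand, and Paics spans bases 76951302 to 76967509 on the plus strand, so their starts overlap by 277 bases on opposite strands. Whether counting used strand is not stated, and reads from these 277 bases could belong to either gene.

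Ppat held 31.5, 33.0, 29.6 and 34.1 TPM in the control hearts and 33.7, 34.1, 32.4 and 33.4 TPM in the mutant hearts. The lowest control was replicate 3, and the mutant values fell within the upper part of the control range. Its log2 fold change was 0.058 with an interval from -0.051 to 0.17 (limma adjusted p of 0.914).

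Paics varied least of the 10 enzymes, with a coefficient of variation of 1.53% over the 8 libraries. It held 231, 224, 226 and 229 TPM in the control hearts and 234, 230, 226 and 233 TPM in the mutant hearts. Both groups covered nearly the same range. The mutant to control log2 fold change was 0.020 with an interval from -0.040 to 0.080 (limma adjusted p of 0.947), the narrowest interval of the 10. Although the genes share their start region, Paics transcripts exceeded Ppat transcripts by 7.12 ± 0.447-fold in the controls and 6.91 ± 0.111-fold in the mutants (SD, n = 4 each), with a range of 6.71 to 7.64 over all 8 libraries.

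Gart and Atic encode the enzymes that use formyl-tetrahydrofolate, and are thus the steps that draw directly on folate-bound carbon. Gart, a protein with several catalytic domains on chromosome 16 (bases 91621395 to 91646972, minus strand), held 60.9, 63.6, 60.9 and 64.0 TPM in the control hearts. The mutant hearts held 67.1, 61.2, 62.9 and 64.7 TPM; replicates 1 and 4 lay above every control and the others within the control range. For Gart the log2 fold change was 0.036 with an interval from -0.051 to 0.12 (limma adjusted p of 0.935).

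Atic, the bifunctional enzyme that closes the purine ring to give IMP, lies on chromosome 1 (bases 71557156 to 71579403, plus strand). It held 74.4, 73.8, 72.5 and 79.2 TPM in the control hearts and 82.5, 73.9, 72.1 and 80.6 TPM in the mutant hearts. The mutant range enclosed the control range, and mutant replicates 1 and 4 were the highest of the 8. For Atic the log2 fold change was 0.042 with an interval from -0.072 to 0.16 (limma adjusted p of 0.943).

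Pfas, the glutamine-dependent amidotransferase that acts between successive steps of Gart, lies on chromosome 11 (bases 68985701 to 69008460, minus strand). It held 21.7, 21.0, 20.5 and 23.2 TPM in the control hearts and 21.7, 21.3, 21.3 and 18.8 TPM in the mutant hearts. Mutant replicate 4 was the lowest and control replicate 4 the highest, while the other 6 libraries lay between 20.5 and 21.7 TPM. The log2 fold change was -0.055 with an interval from -0.19 to 0.077 (limma adjusted p of 0.931), and it shrank to -0.012 without mutant replicate 4.

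Adsl encodes adenylosuccinate lyase, which acts both in ring assembly and in the conversion of IMP to AMP. It lies on the chromosome of Atf4, chromosome 15 (bases 80948490 to 80970947, plus strand), 690944 bases beyond the end of Atf4. It held 44.5, 41.3, 43.0 and 42.6 TPM in the control hearts and 45.8, 44.0, 41.3 and 45.6 TPM in the mutant hearts. Control replicate 2 and mutant replicate 3 shared the lowest level, so the groups overlapped over most of their range. This gave a log2 fold change of 0.043 with an interval from -0.056 to 0.14 (limma adjusted p of 0.929).

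Impdh1 and Impdh2 encode the IMP dehydrogenases that turn IMP towards GMP, the rate-limiting step of guanine nucleotide synthesis. Impdh2 was the more abundant transcript, 3.57 ± 0.654-fold above Impdh1 in the controls and 3.47 ± 0.343-fold above it in the mutants (SD, n = 4 each). Impdh1 (chromosome 6, bases 29200436 to 29216364, minus strand) held 26.7, 31.3, 27.5 and 29.8 TPM in the control hearts and 33.3, 28.4, 30.7 and 29.9 TPM in the mutant hearts. Mutant replicate 1 was the highest and control replicate 1 the lowest, with the rest intermixed. Its log2 fold change was 0.083 with an interval from -0.061 to 0.23 (limma adjusted p of 0.903).

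Impdh2 (chromosome 9, bases 108560436 to 108565577, plus strand) held 115, 84.4, 101 and 107 TPM in the control hearts and 108, 113, 102 and 99.8 TPM in the mutant hearts. Control replicate 2 lay well below the other 7 libraries, and the groups otherwise overlapped. The log2 fold change was 0.062 with an interval from -0.13 to 0.25 (limma adjusted p of 0.952), the widest interval of the 10. Without control replicate 2 it was -0.025, so its sign rested on that library.

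Impdh2 has a near-identical copy that is listed as expressed. Impdh2-ps, annotated as a processed pseudogene on chromosome 8 (bases 100030487 to 100032156), differs from the Impdh2 coding sequence at 4 of 1545 bases, an identity of 99.7%, and the longest stretch without a difference is 611 bases. The differences, with the base of Impdh2 first and positions counted from the first base of its start codon, are C270T, T882C, A891G and C1135T. The stretches around them, from GENCODE M21 transcripts on GRCm38, are shown because they hold every coding base that can tell a read of one locus from a read of the other. Capitals mark the bases that differ, and the first pair covers coding positions 240 to 300, the second 852 to 912 and the third 1105 to 1165.
Impdh2: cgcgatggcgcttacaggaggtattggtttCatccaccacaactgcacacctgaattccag
Impdh2-ps: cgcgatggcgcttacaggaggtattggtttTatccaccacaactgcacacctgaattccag
Impdh2: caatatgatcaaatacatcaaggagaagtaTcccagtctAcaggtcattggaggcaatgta
Impdh2-ps: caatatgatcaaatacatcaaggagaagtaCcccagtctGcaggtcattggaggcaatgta
Impdh2: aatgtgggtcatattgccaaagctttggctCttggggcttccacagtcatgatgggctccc
Impdh2-ps: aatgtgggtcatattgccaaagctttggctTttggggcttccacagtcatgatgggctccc

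Impdh2-ps is listed at 42.1, 54.8, 40.1 and 39.3 TPM in the control hearts and at 52.3, 37.2, 40.8 and 50.3 TPM in the mutant hearts. In control replicate 2, where Impdh2 was lowest, the copy was highest. Together the pair held 157, 139, 141 and 147 TPM in the control hearts and 161, 150, 143 and 150 TPM in the mutant hearts. The coefficient of variation over the 8 libraries was 9.21% for Impdh2, 15.1% for Impdh2-ps and 5.08% for the sum. The sum thus had a lower coefficient of variation than either part. A sum of unrelated values can also have one, so this does not show how reads were divided. The copy took between 24.7% and 39.3% of the sum. With the pair summed, an alternative chosen after the data were seen, the log2 fold change was 0.049 (limma adjusted p of 0.928). How reads common to the pair were assigned was not tested, and the level of either alone is uncertain.

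**Figure D2:**
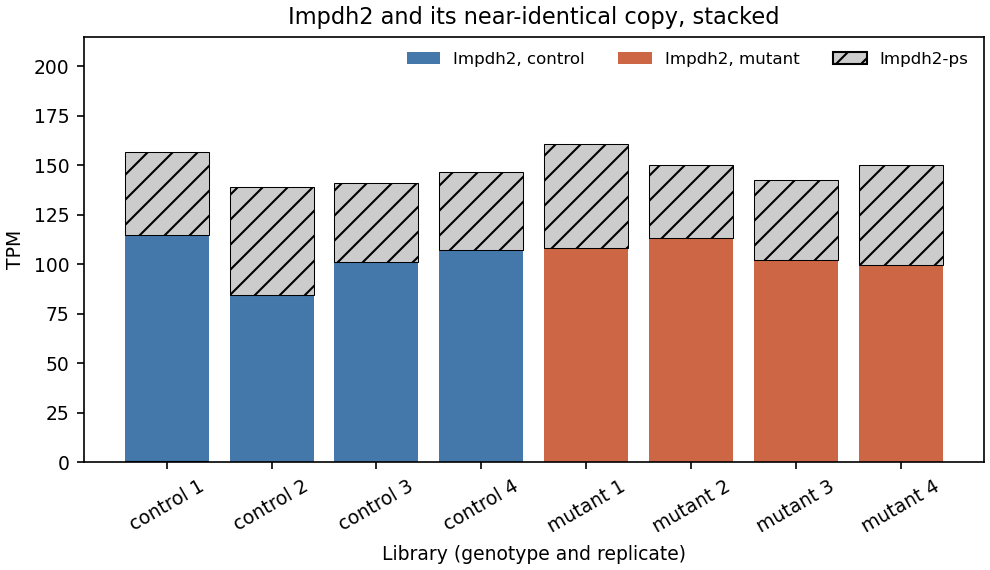
Stacked bars of TPM per library, with Impdh2 in blue (4 controls) or orange (4 mutants) and Impdh2-ps hatched on top; the bars start at 0. Control replicate 2 has the lowest Impdh2 part (84.4 TPM) and the highest Impdh2-ps part (54.8 TPM), while the stacked totals stay between 139 and 161 TPM.

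A search of GENCODE M21 transcripts for sequences at least 85% identical over at least 300 bases found copies of 4 of the 10 enzymes. Besides Prps1l3 and Impdh2-ps, these were 7 copies of Paics and 2 of Atic, all pseudogenes. The highest value of any of those 9 in any library was 0.503 TPM, for Gm2829, so they are listed near 0 beside parent transcripts of 229 and 76.1 TPM.

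Gmps encodes GMP synthetase, the glutamine-dependent last step to GMP. It lies on chromosome 3 (bases 63963633 to 64021554, plus strand), and shares 1101 bases with Slc33a1 on the opposite strand, a gene at 9.93 TPM on average. It held 57.4, 56.4, 54.5 and 46.1 TPM in the control hearts and 55.5, 55.5, 56.1 and 57.0 TPM in the mutant hearts. Control replicate 4 was low, and the other 7 libraries lay between 54.5 and 57.4 TPM. The log2 fold change of 0.067, with an interval from -0.076 to 0.21 (limma adjusted p of 0.929), became -0.0021 without control replicate 4.

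By library, all enzymes lay on the same side of their own means only in mutant replicate 1 and control replicate 3. In the other libraries 4 to 8 of the 10 lay above, and correlation between the enzymes was not tested. In mutant replicate 1 all 10 lay above their own mean over the 8 libraries, by 0.075 on average on the log2(TPM + 1) scale, and in control replicate 3 none did, a count of 0, with an average of -0.050. The median of all tested genes in these libraries stood at 0.036 and -0.018 on the same scale. The 17 proliferation genes averaged 0.036 in mutant replicate 1 and -0.074 in control replicate 3. The upward median of the enzymes fell from 0.051 to 0.034 without mutant replicate 1 and was between 0.034 and 0.073 in the 8 fits that each left out 1 library.

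**Figure D3:**
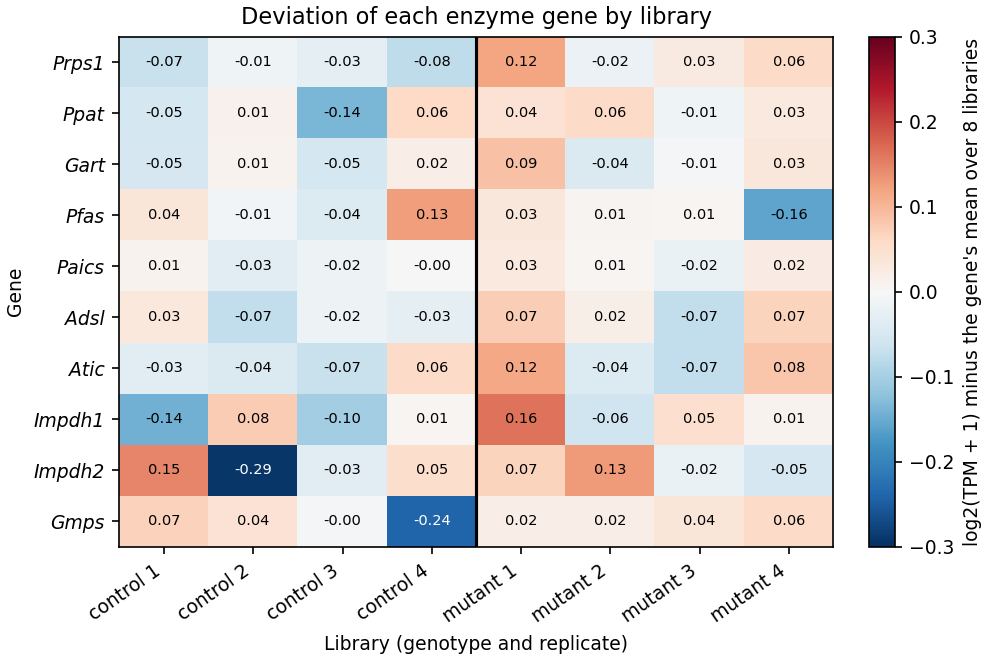
Colour grid of log2(TPM + 1) minus the gene's mean over 8 libraries, with a row per enzyme and a column per library (controls left of the black line, mutants right of it). The column of mutant replicate 1 is above 0 in all 10 rows, and the strongest single deviations are the low Impdh2 value in control replicate 2 (-0.29) and the low Gmps value in control replicate 4 (-0.24).

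The supply of folate-bound carbon was read from 21 genes, all of them tested. This list was drawn up with earlier results of these data known. In it 2 genes fell and 0 rose (limma, adjusted p below 0.05), and 0.0322% of all genes were called lower. Phgdh, the first enzyme of serine synthesis, held 58.5, 62.5, 62.5 and 61.3 TPM in the control hearts and 46.1, 45.4, 42.5 and 42.4 TPM in the mutant hearts. Its log2 fold change was -0.46 with an interval from -0.56 to -0.37 (limma adjusted p of 0.00883). Aldh1l2, a mitochondrial formyl-tetrahydrofolate dehydrogenase, held 21.1, 21.2, 20.9 and 21.8 TPM in the control hearts and 16.4, 14.2, 14.6 and 16.0 TPM in the mutant hearts. Its log2 fold change was -0.45 with an interval from -0.57 to -0.32 (limma adjusted p of 0.0430).

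Over all 15545 genes tested, every mutant lay below every control in 319, and the groups lay fully apart in either direction in 3.68%. Among the 21 genes, every mutant lay below every control in 2. These 2 were Phgdh and Aldh1l2. Their intervals end at -0.37 and -0.32, below the lowest bound of any purine enzyme, -0.19. The difference between these genes and the enzymes was not itself tested. With 1 library left out, Aldh1l2 lost its call in each of the 8 fits, while its log2 fold change stayed between -0.48 and -0.42. Phgdh lost its call without control replicate 2, 3 or 4, and its log2 fold change stayed between -0.48 and -0.45 over the 8 fits.

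Among the other 19 genes of the list, 9 lay above 0 and 10 below, and the median log2 fold change was -0.0036. At an unadjusted p below 0.05 (limma), 2 of the 19 were lower, Psat1 and Mthfd2, against 3.45% of all genes. At that threshold 0 of the 19 were higher, against 2.65% of all genes. Psat1, the transaminase of serine synthesis, had the smallest p among them, with 53.9 ± 3.00 TPM in the control hearts and 48.0 ± 3.50 TPM in the mutant hearts (SD, n = 4 each). Its log2 fold change was -0.16 (limma unadjusted p of 0.0214, adjusted p of 0.800). Mthfd2, a mitochondrial folate enzyme, held 29.3 ± 1.80 and 26.6 ± 1.59 TPM (SD, n = 4 each), with a log2 fold change of -0.13 (limma unadjusted p of 0.0483, adjusted p of 0.818). The reduced folate carrier Slc19a1 had the lowest log2 fold change of the list, -0.53, with an interval from -1.13 to 0.065 (limma adjusted p of 0.841). Its mutant replicate 4 held 1.78 TPM, and the other 7 libraries held 5.31 to 7.34 TPM.

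**Figure D4:**
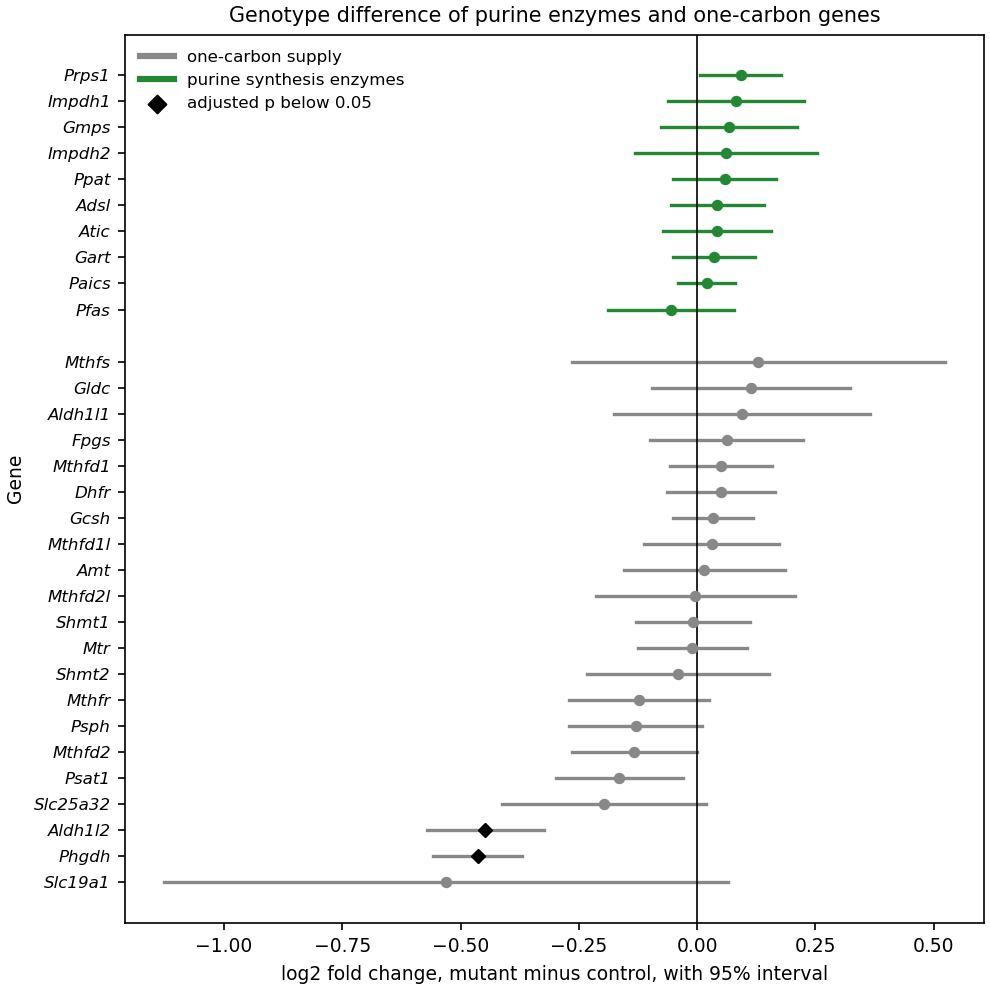
Log2 fold change of mutant over control with its 95% limma interval for the 10 purine enzymes (green, top) and the 21 genes of one-carbon supply (grey, bottom); black diamonds mark genes with an adjusted p below 0.05. The enzyme intervals stay between -0.19 and 0.25, and the diamonds are Phgdh at -0.46 and Aldh1l2 at -0.45.

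Other purine genes were read from 31 genes of phosphoribosyl pyrophosphate supply, the AMP branch, salvage, breakdown and nucleotide conversion, of which 28 were tested. Gda, Xdh and Ampd1 stayed below the filter, at no more than 0.0849 TPM in any library. None of the 28 passed the test, a count of 0 (limma, adjusted p), and 1 had an unadjusted p below 0.05, against 6.10% of all genes. Of these log2 fold changes 14 lay above 0 and 14 below, with 0.00099 as their median.

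That gene was Ak4, a mitochondrial adenylate kinase, at 23.3, 22.8, 22.3 and 27.3 TPM in the control hearts and 27.4, 29.6, 31.2 and 26.2 TPM in the mutant hearts. Control replicate 4 lay within the mutant range, and the other controls lay below it. This gave a log2 fold change of 0.25 with an interval from 0.079 to 0.42 (limma unadjusted p of 0.00878, adjusted p of 0.780). Nt5c2, a nucleotidase that acts on IMP and GMP, held 27.5 ± 0.522 TPM in the control hearts and 25.3 ± 2.21 TPM in the mutant hearts (SD, n = 4 each), with all mutants below all controls. Its log2 fold change was -0.12 (limma adjusted p of 0.841). The groups lay fully apart in 1 of the 28 genes, against 3.68% of all genes.

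Among the AMP-branch and supply genes, Prpsap1, which encodes a protein associated with the synthetase, had the smallest p, at a log2 fold change of -0.054 (limma adjusted p of 0.942). Adssl1, an adenylosuccinate synthase of muscle, held 84.3 ± 4.46 TPM in the control hearts and 85.2 ± 5.93 TPM in the mutant hearts (SD, n = 4 each). In salvage, Dguok and Nt5c had log2 fold changes of 0.16 and -0.087, and in nucleotide conversion Nme1 and Gmpr had 0.034 and -0.056, with limma adjusted p of at least 0.862 in these 4.

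Regulators and growth were compared in the same fit. Atf4 itself, the targeted gene, was higher in the mutants at 166 ± 15.1 TPM against 112 ± 8.07 TPM (SD, n = 4 each, limma adjusted p of 0.0430), and the call was lost when any library but mutant replicate 4 was left out. It was also lost under quantile normalization, with no filter, with no variance trend and with the replicate block. A deletion of 7 bases leaves the rest of the transcript countable, so this level checks nothing about the protein. Mycn and Myc, growth regulators of a family known to drive nucleotide synthesis genes, had log2 fold changes of 0.047 and 0.038 (limma adjusted p of 0.929 and 0.973), and their partner Max had -0.012 (limma adjusted p of 0.992).

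Of 17 proliferation genes, 0 passed the test, against 0.0386% of all genes, and 0 had an unadjusted p below 0.05 (limma), against 6.10%. The log2 fold change was above 0 in 16 and below 0 in 1, with a median of 0.037, and 48.2% of all genes lay above 0. Ccnb1, Ccna2 and Pcna had the smallest p, with log2 fold changes of 0.075, 0.088 and 0.079 and limma adjusted p of 0.841 each. Their small upward values lay beside those of the purine enzymes, and their part in the enzyme values was not tested.

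Sequence windows of 300 bases, from 250 before to 50 after the annotated start (RefSeq, GRCm38.p6), were held for 9 of the 10 enzymes, in 10 windows because Impdh1 has a pair of starts. The E-box CACGTG, the same on both strands, was in 3 of these 10 windows, those of Atic, Paics and Impdh2, and in 7.15% of the 32851 windows of all genes. TGATGNAA, a form of the element that ATF4 is known to bind with C/EBP partners, was searched on both strands and found in the window of Prps1 alone, against 3.97% of all windows. No member window held both motifs. The stretch around every motif match in a member window is printed. Capitals mark the motif, on the plus strand of chr1:71557109-71557155 for Atic, chr5:76951059-76951144 for Paics, chr9:108560286-108560371 for Impdh2 and chrX:140456393-140456480 for Prps1.
Atic: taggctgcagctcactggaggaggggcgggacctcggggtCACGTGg
Paics: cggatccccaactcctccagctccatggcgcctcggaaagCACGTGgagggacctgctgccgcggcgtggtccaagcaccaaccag
Impdh2: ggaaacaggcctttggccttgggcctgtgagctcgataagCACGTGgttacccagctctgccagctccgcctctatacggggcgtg
Prps1: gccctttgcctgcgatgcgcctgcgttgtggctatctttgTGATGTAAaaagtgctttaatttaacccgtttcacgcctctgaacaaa

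The motif begins 7 bases before the start in Atic, 203 in Paics, 110 in Impdh2 and 170 in Prps1. Atic, Paics and Impdh2, the genes with an E-box in the window, were also the enzymes with the highest levels in both genotypes. Pfas, the enzyme with the lowest level, had no window to search, and a link between motif and level was not tested. A match describes the letters of the window only, and binding was not measured.

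The tissue label was checked against marker genes. Summed levels of 7 ventricular cardiomyocyte markers were 34889 to 37363 TPM in the control hearts and 34273 to 36926 TPM in the mutant hearts, and those of 7 neuronal markers were 7.98 to 13.0 and 8.81 to 10.2 TPM respectively. The extraction text of the samples names cultured cortical neurons; 6 of the 7 neuronal markers stayed under 1 TPM in all libraries, and Neurod6 was listed at 0 in all. Erythroid markers, 6 in all, ran from 3967 to 6728 TPM in the control hearts and from 3710 to 5216 TPM in the mutant hearts. The 5 macrophage markers summed to 9.94 to 12.9 TPM in the control hearts and 7.00 to 8.86 TPM in the mutant hearts. These groups did not overlap, at low levels, with Adgre1 and Ptprc under 1 TPM throughout. The sum was not tested. The 3 macrophage markers that passed the filter, Cx3cr1, Csf1r and Cd68, had limma adjusted p of at least 0.573. Endothelial, epicardial, cushion and atrial sums overlapped between genotypes, and the 3 hepatocyte markers stayed under 1 TPM. The 5 atrial markers summed to 6310 to 7673 TPM in the control hearts and 6684 to 7881 TPM in the mutant hearts. Within them Nppa and Myl4 averaged 2933 and 4215 TPM in the control hearts, and Nr2f1 and Nr2f2 averaged 2.79 and 10.9 TPM. Sln, also on the atrial list, stayed under 1 TPM in all libraries. The sums rest on Nppa and Myl4 and by themselves do not tell ventricle from whole heart. In bulk tissue fewer cells of a type and less RNA per cell cannot be told apart, and the part of cell composition in the enzyme values was not tested.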

How the data were processed

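Values are TPM as deposited by the authors, 1 column per library. Per the submitters' processing notes, Trim Galore 0.6.7, HISAT2 2.2.1, StringTie 2.2.1, FastQC, featureCounts and DESeq2 were named without their roles, with the build GRCm38 (mm10). Annotation, strand setting and the treatment of reads that map to several places are not given in the sources used here. The labels disagree on extraction and library type (poly(A) kit or ribosomal RNA depletion). TPM keeps no depth, so no counting interval is given. The 10 loci matched RefSeq GRCm38.p6 in start and end.

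Groups and replicate numbers came from sample titles. The labels call them biological replicates without naming animals or litters, and p-values measure the spread between these samples. No pair of the 28 library pairs shared more than 0.0129% of values exactly. log2(TPM + 1) was fitted in limma 3.58.1 (R 4.3.3) over the 15545 genes that reached 1 TPM in 4 or more libraries, with a variance trend and no covariate. Tests were two-sided, adjusted by Benjamini-Hochberg over all genes. Folds are on that scale. The fit was tested on simulated data. Copies were searched with BLAST 2.17.0, and plots used Python 3.11.15 with pandas 2.3.3 and matplotlib 3.10.9.

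The members and lists were chosen with earlier results of these data known. Named are the 10 enzymes, Atf4, Myc, Mycn, Max and, per other list, genes past the threshold plus up to 3 with the smallest p. Mthfd2, Slc19a1, Mars1, Prps1l3, Impdh2-ps, Gm2829, Slc33a1, Gda, Xdh and Ampd1 were named after their values were seen. Alternatives were another pseudocount, other filters, scalings and variance models, library weights, the replicate number as a block, each library left out and, added after seeing the data, sums with near-identical copies.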

Additional observations from a re-analysis of the deposited data

Results flagged for a closer look

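In each group of 4 libraries, a library was singled out where its gap to the nearest other library exceeded 0.829 of the range of the group. This was checked 82 times, over the enzymes, their copies, the other named genes and the marker sums, and happened 5 times, against 4.1 expected at the 5% rate of the rule. Pfas was low in mutant replicate 4, with 18.8 TPM, while the other mutants held 21.3 to 21.7 TPM. Nt5c2 was low in mutant replicate 2, with 22.0 TPM beside 26.0 to 26.6 TPM. Myc was high in mutant replicate 1, the library in which all 10 enzymes lay above their means, at 16.1 TPM against 12.5 to 12.9 TPM. In control replicate 2 the summed endothelial and endocardial markers were high, at 520 TPM against 481 to 484 TPM, and the summed epicardial markers were low, at 221 TPM against 248 to 249 TPM.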

How the results depend on the processing

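In all 17 alternatives 0 of the 10 enzymes passed the threshold, with adjusted p of at least 0.723 (limma). The number of enzymes above 0 was 8 or 9, and the 95% intervals stayed between -0.23 and 0.31. Of 170 enzyme values 2 changed sign: Impdh2 without control replicate 2 (-0.025, with 0.12 as the highest value with 1 library left out) and Gmps without control replicate 4 (-0.0021, highest 0.101). Prps1 kept an unadjusted p below 0.05 in 7 of the 17. Neither median-of-ratios scaling nor quantile normalization moved the median log2 fold change of all genes by more than 0.0064.

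Under quantile normalization the 6 calls over all genes included Mars1 in place of Atf4. The calls over all genes fell from 6 to 0 with no filter, with no variance trend and with the replicate block, and the 2 one-carbon calls also fell to 0 in these. Leaving out 1 library gave 0 to 3 calls over all genes and 0 to 1 among the one-carbon genes. The labels do not say whether the replicate numbers pair the libraries. Deviations of same-numbered libraries correlated between -0.0823 and 0.0351, and 2 of the 8 libraries correlated best with their own number. These values show no pairing, but with 4 libraries per group they cannot exclude one. Precision is limited by 4 libraries per group and an unknown read depth.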
